A study of Mus musculus with 8 samples.

Results

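Epithelial cells keep their junctions, keratins and apical-basal polarity through a set of transcription factors that opposes the program called epithelial-mesenchymal transition (EMT). ZEB1, ZEB2, SNAI1, SNAI2 and TWIST1 are DNA-binding repressors that promote EMT. They switch off epithelial genes such as Cdh1 by binding E-box sequences in their control regions. GRHL1, GRHL2, ELF3, OVOL1 and OVOL2 act on the other side: the grainyhead factors and the ETS factor ELF3 activate epithelial genes, and the OVOL zinc-finger proteins repress Zeb1 and other mesenchymal regulators. ZEB1 and GRHL2 are known to repress each other's genes.

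The transcripts of these 10 genes were examined in preSC cells, a precancerous neuroendocrine lung cell culture from mouse models of small cell lung cancer. All 10 were matched by symbol among the 23284 genes counted. They were chosen by their difference between Max knockout and control libraries, with the values of these libraries already known, as 5 EMT repressors set against 5 epithelial regulators. Their values in this contrast are therefore a description, with no p-value given for any of them.

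The series held 4 MaxKO libraries, from cells that had received a guide RNA against Max, and 4 Ctrl libraries, from cells that had received a control guide. Both groups were polyclonal, selected with puromycin and left untreated. All came from cells with the genotype given as Chga-GFP;Rblox/lox;p53lox/lox;p130lox on the strain background 129/SvJ; C57BL/6, so the Rb, p53 and p130 alleles and the Chga reporter were shared by both groups. The labels leave unsaid if each library had its own culture, so the p-values below reflect library-to-library spread that could be technical alone. MAX is the obligate partner of the MYC proteins and of the MNT, MGA and MXD repressors.

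Reads counted in genes numbered 14952291 to 19480947 in MaxKO and 13711278 to 19804949 in Ctrl libraries. Levels are counts scaled to library size (CPM) with TMM factors unless said otherwise, and a gene with no read could have had up to 0.219 CPM in the shallowest library (3 counts). This limit covers counting error only. Max mRNA was at 42.3, 42.3, 59.1 and 68.0 CPM in MaxKO libraries 1 to 4, against 65.5, 70.2, 75.2 and 61.9 CPM in Ctrl libraries 1 to 4. The groups overlapped in this transcript. These files do not measure how many Max alleles were edited.

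The 16 neuroendocrine markers listed summed to 8616 to 9270 CPM in MaxKO and 8111 to 10131 CPM in Ctrl libraries. Of the 15 that were tested, 1 rose and 4 fell, as given below. Chga, the granin gene, averaged 442 ± 34 CPM in MaxKO and 457 ± 8.75 CPM in Ctrl libraries (SD, n = 4 each). Of the other lung epithelial markers, Krt5 and Scgb3a2 had no read in any library. Control libraries 3 and 4 stood apart from controls 1 and 2 in the share of reads outside exons (23.5% and 23.6% against 18.7% and 18.9%, with 20.7% to 21.8% in MaxKO), and where the call of a gene named below changed with the choice of control pair, the values with either pair are given.

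The miR-200 microRNAs are the best known post-transcriptional repressors of Zeb1 and Zeb2. The 3′ UTRs of the 10 regulators were searched for their seed matches, and the mature sequences are shown here because the search rests on them. The capitals mark the seed, bases 2 to 8, in the RefSeq sequences of build GRCm38.p6. The first group shares 1 seed:
mmu-miR-200b-3p: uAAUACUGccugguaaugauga
mmu-miR-200c-3p: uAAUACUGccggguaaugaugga
mmu-miR-429-3p: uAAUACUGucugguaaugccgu
The second group shares a seed that differs by a single base:
mmu-miR-141-3p: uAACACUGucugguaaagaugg
mmu-miR-200a-3p: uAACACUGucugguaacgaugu

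In the longest protein-coding GENCODE M21 transcript of each gene, the 3′ UTR of Zeb1 (2401 bases) held 9 seed matches of 7 bases, 5 for the first seed and 4 for the second. The 3′ UTR of Zeb2 (4941 bases) also held 9, again 5 and 4. Of 21661 protein-coding genes, 24.7% held at least 1 such match and 0.295% held at least 5. Among UTRs of 0.8 to 1.25 times the same length, 0.0358% of 2791 held as many as Zeb1 and 0.0923% of 1084 held as many as Zeb2, which in each case was 1 gene, the regulator itself. Snai2 held 2 matches, Snai1, Grhl1 and Grhl2 held 1 each, and Elf3, Ovol1, Ovol2 and Twist1 held 0. Examples of the Zeb2 matches, with the match in capitals and on the minus strand of GRCm38, were the following.
Zeb2 at chr2:44988163-44988191: ctaccatacatCAGTATTttattattatt
Zeb2 at chr2:44988098-44988126: ctacagtgcatCAGTATTacgattcctca
Zeb2 at chr2:44987815-44987843: ccatccttgtaCAGTGTTcagagggtaac
A match is a description of the sequence and not a tested site. These libraries were not made from small RNA. The rows of the 5 microRNA genes held 0 reads, or for Mir429 1 read, over all 8 libraries, so the level of the mature microRNAs is not known from them.

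**Figure D1:**
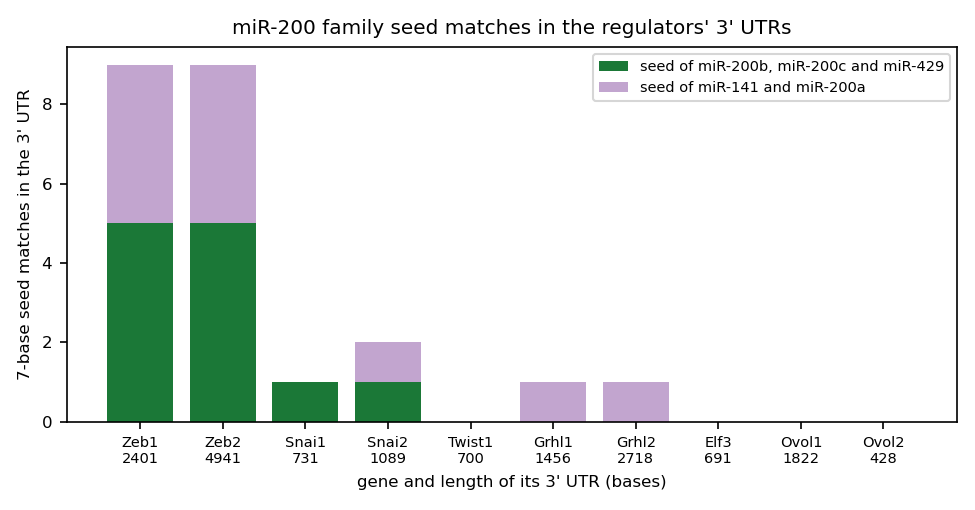
Number of 7-base matches (y axis) to the seed of miR-200b, miR-200c and miR-429 (green) and to that of miR-141 and miR-200a (violet) in the 3′ UTR of each of the 10 regulators, with the UTR length in bases under the gene name. Zeb1 and Zeb2 hold 9 each and the other 8 genes hold 0 to 2.

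Among the repressors, Zeb1, Zeb2 and Snai2 were lower in MaxKO cells, Snai1 was at a like low level in both groups and Twist1 had almost no reads. Zeb1, the most abundant of the 5 in reads, was at 19.2, 22.7, 27.9 and 28.1 CPM in MaxKO libraries 1 to 4, against 53.9, 57.6, 55.0 and 50.3 CPM in Ctrl libraries 1 to 4. Every MaxKO library lay below every Ctrl library, and the nearest values were 28.1 CPM in MaxKO and 50.3 CPM in Ctrl. The fitted log2 fold change was -1.15 (SE 0.118), so that the Ctrl level was 2.22 times the MaxKO level.

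Zeb2, which encodes the close relative of ZEB1 with the same paired zinc-finger clusters, was at 2.77, 3.12, 3.25 and 3.89 CPM in MaxKO libraries 1 to 4, against 4.43, 5.11, 5.64 and 5.78 CPM in Ctrl libraries 1 to 4. The groups did not overlap, but MaxKO library 4 and Ctrl library 1 were close. The log2 fold change was -0.68 (SE 0.168) on 209 reads in all MaxKO and 353 reads in all Ctrl libraries.

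Snai2, which encodes SLUG, was at 1.98, 2.46, 3.12 and 3.25 CPM in MaxKO libraries 1 to 4, against 5.54, 4.69, 5.56 and 7.12 CPM in Ctrl libraries 1 to 4. The groups did not overlap and the log2 fold change was -1.09 (SE 0.202), close to that of Zeb1. Its depth was low, with 172 reads in MaxKO and 391 reads in Ctrl libraries in all.

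Snai1, which encodes SNAIL, did not follow Snai2. It was at 1.04, 1.26, 1.15 and 1.40 CPM in MaxKO libraries 1 to 4, against 0.805, 1.68, 1.39 and 0.673 CPM in Ctrl libraries 1 to 4. The MaxKO values lay inside the range of the Ctrl values, and with 78 reads in MaxKO and 75 reads in Ctrl libraries a moderate difference was not detectable at this depth (log2 fold change 0.11, SE 0.311).

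Twist1, which encodes a basic helix-loop-helix factor of mesoderm and neural crest, had 1 read in all MaxKO libraries and 4 reads in all Ctrl libraries. No library exceeded 0.122 CPM by its plain library total, which is below the limit that a count of 0 allows, so no fold is given. It was the single member under the filter on low counts.

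Among the epithelial regulators, Grhl2, Elf3 and Ovol1 were higher in MaxKO cells, each by a little under 1 on the log2 scale, and Grhl1 and Ovol2 differed by little. Grhl2, a grainyhead factor that activates Cdh1 and claudin genes, was at 51.0, 51.6, 44.7 and 50.5 CPM in MaxKO libraries 1 to 4, against 25.6, 23.5, 21.7 and 35.6 CPM in Ctrl libraries 1 to 4. The groups did not overlap, and Ctrl library 4 was the control nearest to the knockout. The log2 fold change was 0.89 (SE 0.136).

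Elf3, an epithelial ETS factor, was at 50.6, 47.6, 49.1 and 53.0 CPM in MaxKO libraries 1 to 4, against 27.8, 26.3, 28.5 and 26.5 CPM in Ctrl libraries 1 to 4. It was the steadiest of the members that differed, with a coefficient of variation of 4.60% within MaxKO and 3.89% within Ctrl libraries. The log2 fold change was 0.88 (SE 0.0738).

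Ovol1 was at 24.6, 28.5, 25.8 and 27.5 CPM in MaxKO libraries 1 to 4, against 13.0, 11.9, 14.3 and 16.0 CPM in Ctrl libraries 1 to 4, again with no overlap (log2 fold change 0.95, SE 0.106). Its paralog Ovol2 was at 8.40, 8.10, 8.47 and 9.31 CPM in MaxKO libraries 1 to 4, against 8.26, 7.40, 7.91 and 6.96 CPM in Ctrl libraries 1 to 4. The Ovol2 groups overlapped, and the log2 fold change was 0.17 (SE 0.115). Grhl1 was at 37.4, 38.0, 37.3 and 37.0 CPM in MaxKO libraries 1 to 4, against 35.8, 30.4, 29.9 and 41.1 CPM in Ctrl libraries 1 to 4. All 4 MaxKO values of Grhl1 lay inside the Ctrl range, with a log2 fold change of 0.12 (SE 0.103).

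**Figure D2:**
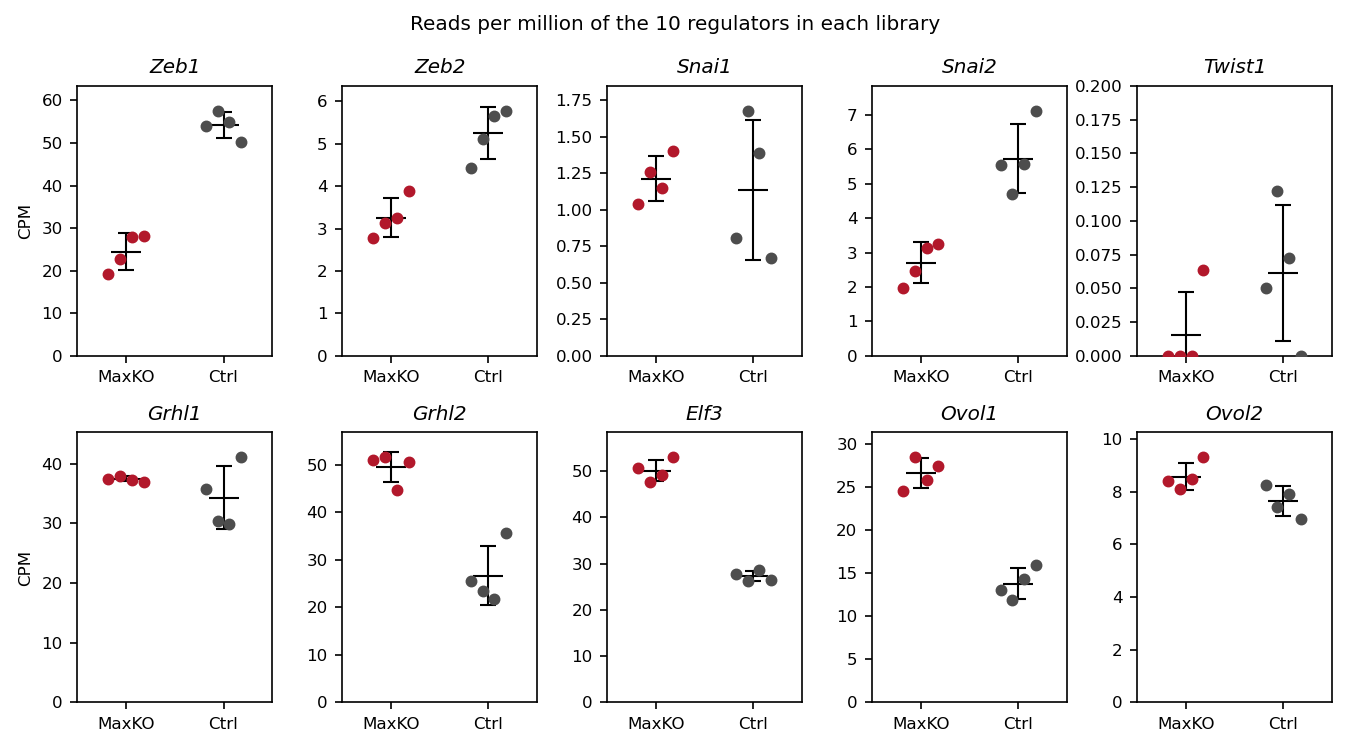
Level (y axis, CPM, from 0) of the 10 regulators, repressors in the upper row and epithelial regulators in the lower, with 1 point per library, MaxKO (red, n = 4) left of Ctrl (grey, n = 4) and bars for the mean ± SD. The groups do not overlap for Zeb1, Zeb2, Snai2, Grhl2, Elf3 and Ovol1. Twist1 is drawn by plain library totals and reaches at most 0.122 CPM.

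Of the 9 members tested in the fit across all genes, 3 epithelial regulators were called higher and 3 repressors were called lower in MaxKO, where 10.9% of 13358 tested genes were called higher and 12.2% lower (23.1% in either direction; quasi-likelihood test in edgeR with a Benjamini-Hochberg adjusted p below 0.05). The same 6 members had groups that did not overlap, as did 26.4% of all tested genes. Since the members were chosen on this contrast, nothing is read from these counts. In 3 pairs of paralogs 1 member was called and the other was not: Snai2 and not Snai1, Grhl2 and not Grhl1, and Ovol1 and not Ovol2. Whether the members of such a pair differ from each other was not tested.

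Summarised by library, the mean log2 CPM of the 5 epithelial regulators exceeded that of the 4 tested repressors by 3.09, 2.87, 2.67 and 2.63 in MaxKO libraries 1 to 4, against 1.70, 1.30, 1.36 and 1.73 in Ctrl libraries 1 to 4. The ratio of Grhl2 reads to Zeb1 reads was 2.66, 2.27, 1.60 and 1.8 in MaxKO libraries 1 to 4, against 0.475, 0.408, 0.395 and 0.707 in Ctrl libraries 1 to 4. Zeb1 had more reads than Grhl2 in each control library, and Grhl2 more than Zeb1 in each knockout library. This ratio is not corrected for the length of the transcripts. Both summaries are made from the values on which the members were chosen, so their separation of the groups is no independent result.

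Per kilobase of the longest protein-coding transcript in GENCODE M21 (build GRCm38, another annotation than the one used for counting), Elf3 was the highest of the 10 at 23.9 ± 1.1 CPM per kilobase in MaxKO and 13.0 ± 0.503 in Ctrl libraries (SD, n = 4 each). Zeb1 was at 4.22 ± 0.744 CPM per kilobase in MaxKO and 9.34 ± 0.522 in Ctrl libraries. In Ctrl libraries the level of Zeb1 stood next to that of Grhl1 (9.89 ± 1.52), from which it did not differ beyond the spread, and above Grhl2 (5.38 ± 1.25), Ovol2 (4.93 ± 0.369) and Ovol1 (4.64 ± 0.594), whose ranges overlapped each other. In MaxKO libraries Zeb1 stood below all 5 epithelial regulators, of which Ovol2 was the lowest at 5.54 ± 0.335 CPM per kilobase. Grhl2 (10 ± 0.647) and Ovol1 (8.95 ± 0.585) overlapped in MaxKO. Snai2 was at 1.34 ± 0.293 CPM per kilobase in MaxKO and 2.83 ± 0.501 in Ctrl libraries. Zeb2 was far below Zeb1, at 0.357 ± 0.0513 in MaxKO and 0.574 ± 0.0671 in Ctrl libraries, a range that overlapped that of Snai1 in the controls (0.701 ± 0.295).

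**Figure D3:**
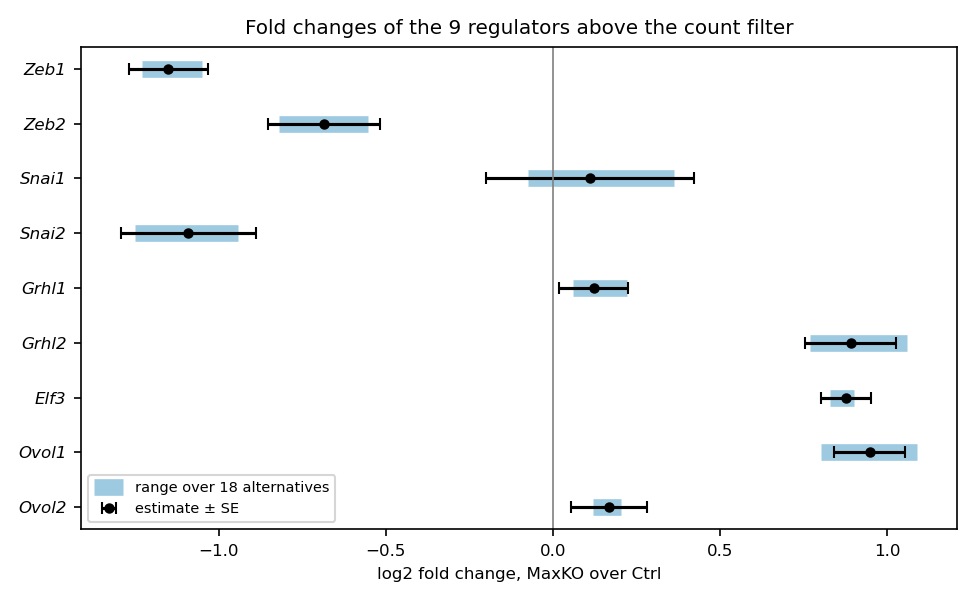
Log2 fold change (x axis, MaxKO over Ctrl) of the 9 regulators above the count filter, with the standard error as black bars and, in blue, the range over 18 alternative fits. The estimates for Zeb1, Zeb2 and Snai2 stay below 0 and those for Grhl2, Elf3 and Ovol1 stay above 0 in each of these fits, while that for Snai1 crosses 0.

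The patterns over the 8 libraries were compared by the root mean square difference of log2 CPM after each gene was centred on its own mean, which is 0 for identical patterns. Within the set, Elf3 and Ovol1 (0.142) and Grhl2 and Ovol1 (0.157) were the closest pairs, and Zeb1 was closest to Snai2 (0.207). Over 12114 other genes with a mean log2 CPM of at least 1, the 5 nearest to Zeb1, the repressor with the most reads, included Pcnxl2 (0.101), the potassium-chloride cotransporter gene Slc12a4 (0.109), the integrin gene Itgb4 (0.111) and the phosphofructokinase gene Pfkm (0.113). The 5 nearest to Elf3 included the reductase gene Cyb5r1 (0.0771), the tubulin gene Tuba4a (0.0953), Rrp15 (0.103) and the claudin gene Cldn7 (0.108). These distances include the group difference on which the members were chosen, so genes with a like fold change lie close. The log2 fold changes were -1.34 to -1.09 for the 5 nearest to Zeb1 and 0.725 to 0.867 for those nearest to Elf3. Shared regulation was not tested.

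Relatives of the members in the same families were mixed. Of 15 relatives listed, 14 were in the files and 10 were tested, of which 2 rose and 2 fell, with 6 not passing the test (median log2 fold change -0.15). Over all tested genes, 10.9% rose and 12.2% fell. The ETS gene Ehf, a close epithelial relative of Elf3, rose to 50.7 ± 1.23 CPM in MaxKO, against 25.3 ± 10.2 CPM in Ctrl libraries (SD, n = 4 each; log2 fold change 0.99, SE 0.238, edgeR adjusted p = 0.0122). The size of this rise depended on the controls, 0.58 with only controls 1 and 2 and 1.57 with only controls 3 and 4. Snai3, a further SNAIL family gene, rose to 8.91 ± 0.922 CPM in MaxKO, against 4.52 ± 1.33 CPM in Ctrl libraries (0.98, SE 0.189, adjusted p = 0.00334), opposite to Snai2.

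Scrt1, a neuronal repressor of the wider SNAIL superfamily, fell to 1.46 ± 0.428 CPM in MaxKO, against 4.91 ± 1.40 CPM in Ctrl libraries (SD, n = 4 each; -1.74, SE 0.280, edgeR adjusted p = 0.00109). Its relative Scrt2 did not pass (-1.53, adjusted p = 0.0549; -1.0, adjusted p = 0.00242 against controls 1 and 2, and -1.92, adjusted p = 0.0669 against controls 3 and 4) and was at 10.3 CPM in control 3 alone, against 1.57 to 3.79 CPM in the other controls. Ubp1, a factor of the family that also holds the grainyhead genes, fell (-0.57, SE 0.0777, adjusted p = 0.000417), and its relative Tfcp2l1 did not pass (-0.66, adjusted p = 0.0514). Tfcp2l1 was at -0.999 (adjusted p = 1.17e-06) against controls 1 and 2 and at -0.22 (adjusted p = 0.391) against controls 3 and 4. With upper-quartile scaling, 2 relatives rose and 5 fell, with DESeq2 2 rose and 4 fell, and against controls 1 and 2 alone 3 rose and 4 fell. Over all 13358 tested genes, upper-quartile scaling gave 1160 rises and 1965 falls, and DESeq2 1671 rises and 1763 falls. Controls 1 and 2 alone gave 2987 rises and 3081 falls of 13604 tested genes. Grhl3 was under the count filter, with 5 reads in MaxKO and 30 reads in Ctrl libraries, of which 26 came from controls 1 and 2, and Twist2 had no read. Tfcp2, of the same family as Ubp1, was lower in MaxKO without overlap but did not pass (-0.23, edgeR adjusted p = 0.0566), nor did the ETS genes Elf1 (-0.03, adjusted p = 0.866), Elf2 (-0.07, adjusted p = 0.649) and Elf4 (0.31, adjusted p = 0.146). Elf4 passed against controls 1 and 2 (0.57, adjusted p = 7.63e-05) and not against controls 3 and 4 (0.07, adjusted p = 0.724). The ETS genes Elf5 (1 read in MaxKO and 0 in Ctrl libraries) and Spdef (10 reads in each group) were under the filter.

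Genes that these factors are known to control, or that mark the epithelial state, were mostly higher in MaxKO cells. Of 40 such genes listed, 39 were in the files and 36 were tested, of which 30 rose, none fell and 6 did not pass, where 10.9% of all tested genes rose. Their median log2 fold change was 0.70, against 0.00 (-0.00362) over all tested genes. The list was drawn up with results of these libraries known, so the count of rises is no independent evidence of its direction. It stayed at 28 to 31 rises in each fit that left out 1 library and was 31 with either pair of controls. Of all tested genes, 2987 of 13604 rose with controls 1 and 2, and 1272 of 13552 with controls 3 and 4.

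Cdh1, which encodes E-cadherin and is the best known target of the ZEB and SNAIL repressors, rose to 963 ± 41.9 CPM in MaxKO, against 669 ± 100 CPM in Ctrl libraries (SD, n = 4 each; log2 fold change 0.53, SE 0.107, edgeR adjusted p = 0.00444). It was already abundant in the controls, at 535 to 749 CPM, and all 4 MaxKO libraries were above these. The rise of Ap1m2, a subunit of the epithelial basolateral sorting adaptor, had the smallest p of the list: 120, 117, 109 and 111 CPM in MaxKO libraries 1 to 4, against 34, 32.6, 42.2 and 51.2 CPM in Ctrl libraries 1 to 4 (1.52, SE 0.128, edgeR adjusted p = 2.63e-05). The splicing regulators of the epithelial state rose together. Esrp2 was at 72.9 ± 5.23 CPM in MaxKO and 28.4 ± 6.92 CPM in Ctrl libraries (1.36, edgeR adjusted p = 8.51e-05), and Esrp1 at 311 ± 10 CPM in MaxKO and 175 ± 21.6 CPM in Ctrl libraries (SD, n = 4 each; 0.83, adjusted p = 9.44e-05).

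St14, which encodes the membrane protease matriptase, rose by 1.04 on the log2 scale (SE 0.0909, edgeR adjusted p = 2.83e-05). Crb3, an apical polarity gene, rose by 1.00 (SE 0.102, adjusted p = 7.10e-05) and the tight junction claudin gene Cldn7 by 0.87 (SE 0.0856, adjusted p = 5.63e-05). Krt18, an intermediate filament gene of simple epithelia, rose by 0.72 (SE 0.0718, adjusted p = 6.02e-05), although reads of keratin genes with near-identical pseudogenes are less certain. Epcam, an epithelial adhesion gene, was at 754 ± 26.4 CPM in MaxKO and 596 ± 125 CPM in Ctrl libraries and did not pass (SD, n = 4 each; 0.34, adjusted p = 0.0798). It passed against controls 3 and 4 (0.58, adjusted p = 0.00223) and not against controls 1 and 2 (0.13, adjusted p = 0.193). Only Cldn3 (-0.05, adjusted p = 0.748) and Rhov (-0.06, adjusted p = 0.915), named after their values were seen, had estimates below 0 among the 36. The sign of both depended on the controls: Cldn3 was at -0.18 against controls 1 and 2 and 0.09 (0.0851) against controls 3 and 4, and Rhov at 0.58 against controls 1 and 2 and -0.52 against controls 3 and 4.

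Most mesenchymal genes were too low to test. Of 30 mesenchymal genes listed, 12 had enough reads to be tested, of which none rose, 4 fell and 8 did not pass, with a median log2 fold change of -0.17, where 12.2% of all tested genes fell. The call count was 6 with only controls 1 and 2 and 1 with only controls 3 and 4, when 2 genes also rose. Of all tested genes, 3081 of 13604 fell with controls 1 and 2. With controls 3 and 4, 1538 of 13552 fell and 1272 rose. Vim, the intermediate filament gene that defines mesenchymal cells, had 2 reads in all MaxKO libraries and 15 reads in all Ctrl libraries, and 18 of the 30 genes were under the filter. Cdh2, which encodes N-cadherin and is also a neuronal gene, was at 188 ± 11.1 CPM in MaxKO and 203 ± 7.60 CPM in Ctrl libraries and did not pass (SD, n = 4 each; -0.11, edgeR adjusted p = 0.309). The fibronectin gene Fn1 did not pass either (-0.46, adjusted p = 0.236). The integrin gene Itgav was at 14.2 to 18.7 CPM in MaxKO and 6.95 to 14 CPM in Ctrl libraries, a higher level without overlap that did not pass (0.45, adjusted p = 0.112). It passed against controls 3 and 4 (0.78, adjusted p = 0.00938) and not against controls 1 and 2 (0.17, adjusted p = 0.247).

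Mmp2, Loxl2 and Msn were among the falls. The matrix protease gene Mmp2 fell to 0.731, 0.464, 0.745 and 0.893 CPM in MaxKO libraries 1 to 4, against 3.17, 3.43, 6.37 and 3.93 CPM in Ctrl libraries 1 to 4 (-2.55, SE 0.296, edgeR adjusted p = 0.000146). The lysyl oxidase gene Loxl2 fell by 0.87 on the log2 scale (adjusted p = 0.00840), a call that was lost against controls 3 and 4 alone (-0.53, adjusted p = 0.0545) and held against controls 1 and 2 (-1.14, adjusted p = 1.80e-06). The fall of Msn, the moesin gene, was small (-0.30, adjusted p = 0.0422), its groups overlapped, and it was called in 1 of 8 fits that left out 1 library (highest adjusted p 0.124). Its adjusted p was 0.00186 against controls 1 and 2 and 0.120 against controls 3 and 4.

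**Figure D4:**
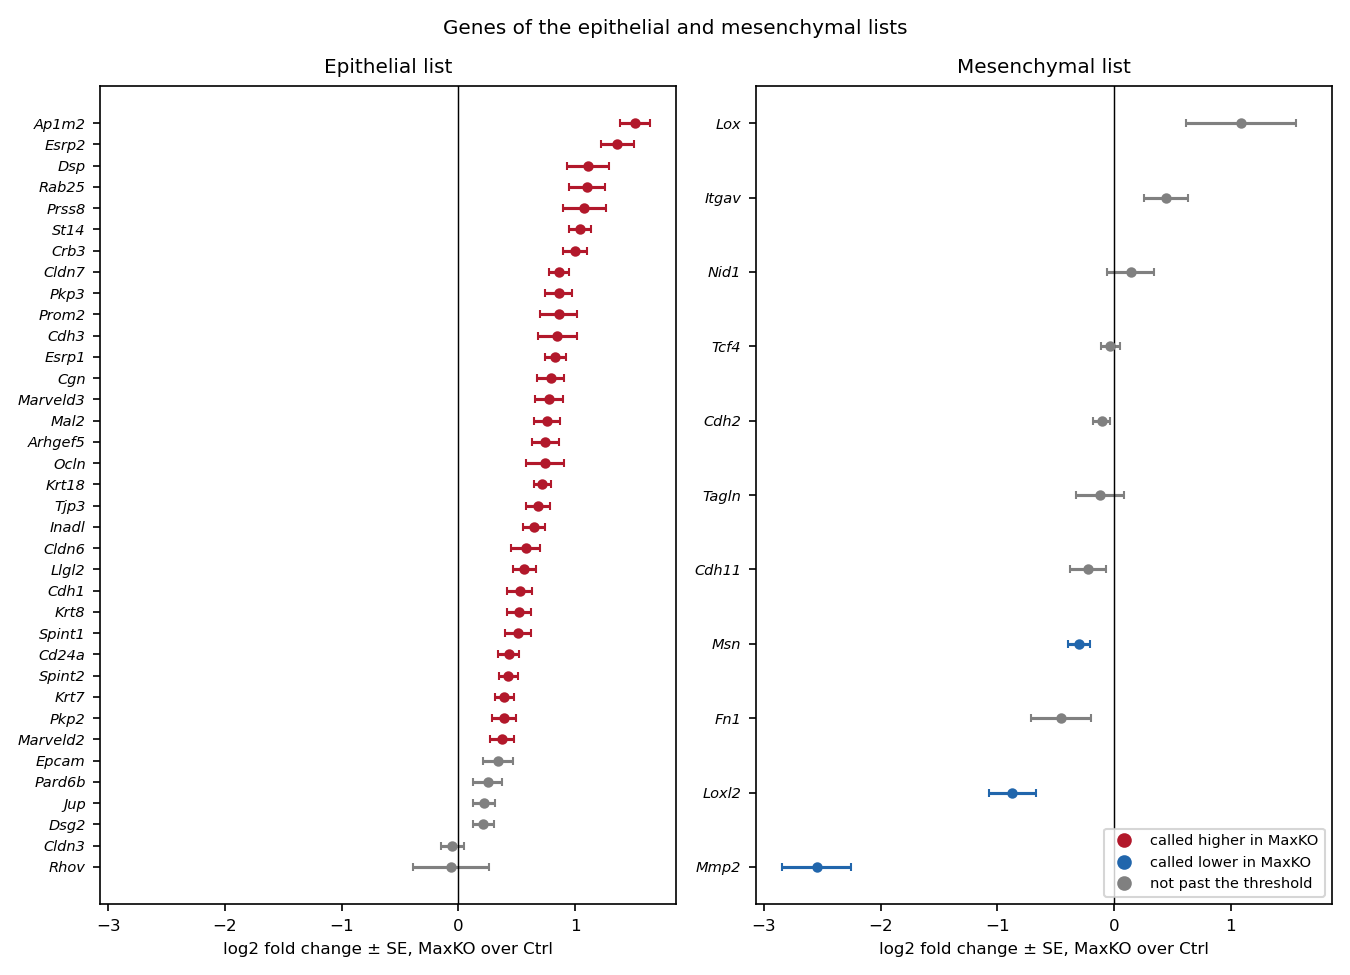
Log2 fold change (x axis, MaxKO over Ctrl) with its standard error for the 36 tested genes of the epithelial list (left) and 11 of the 12 tested genes of the mesenchymal list (right), in red where called higher, in blue where called lower and in grey where not past the threshold. Of the epithelial list 30 genes are called higher, and of the mesenchymal genes drawn 3 are called lower.

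Markers of other cell types were set beside these results. Of 9 fibroblast markers 2 were tested: Dcn rose (0.77, edgeR adjusted p = 0.0124) and Pdgfra fell (-2.37, adjusted p = 0.00423) at no more than 2.27 CPM. Dcn, which encodes the proteoglycan decorin, was thus well above 0 in both groups, at 55.5 ± 6.78 CPM in MaxKO and 32.3 ± 9.77 CPM in Ctrl libraries (SD, n = 4 each). Of the other markers Lum had no read, Col3a1 had 1 read in each group, Col1a2 had 6 reads in MaxKO and 5 in Ctrl libraries, Col1a1 had 8 reads in MaxKO and 22 in Ctrl libraries, and Thy1 had 2 reads in MaxKO and 40 in Ctrl libraries. The summed level of the list was 48.6 to 65.0 CPM in MaxKO and 25.2 to 45.2 CPM in Ctrl libraries, nearly all of it Dcn; the part of such cells in the results above was not tested. Haematopoietic markers summed to 2.43 to 4.21 CPM in MaxKO and 2.98 to 5.98 CPM in Ctrl libraries, endothelial markers to 0.873 to 1.20 CPM in MaxKO and 1.04 to 2.19 CPM in Ctrl libraries, and other lung epithelial markers to 16.2 to 16.6 CPM in MaxKO and 13.0 to 18.7 CPM in Ctrl libraries. Hopx, of alveolar type I cells, was the 1 lung marker called (0.71, adjusted p = 0.0458, called in 1 of 8 fits that left out 1 library; adjusted p = 0.0760 against controls 1 and 2 and 0.0103 against controls 3 and 4). In bulk RNA, a change in the share of cells of a state and a change in RNA per cell cannot be told apart.

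Of 15 tested neuroendocrine markers, 1 rose and 4 fell, with 10 not past the threshold, where 23.1% of all tested genes were called. With only controls 1 and 2, 2 rose and 6 fell, where 2987 of 13604 tested genes rose and 3081 fell. Controls 3 and 4 alone gave 2 rises and 4 falls, where 1272 of 13552 tested genes rose and 1538 fell. The granin gene Chgb (-0.37, edgeR adjusted p = 0.00183), the Notch ligand gene Dll3 (-0.51, adjusted p = 0.00398) and the secretogranin gene Scg2 (-0.57, adjusted p = 0.00729) fell. Resp18 (-0.53, adjusted p = 0.0463) and, upward, Uchl1 (0.41, adjusted p = 0.0496) were at the threshold, and their calls ended in 6 and 7 of the 8 fits that left out 1 library. Neither was called against controls 3 and 4 (Resp18 -0.13, adjusted p = 0.339; Uchl1 0.21, adjusted p = 0.290), and both were against controls 1 and 2 (Resp18 -0.85, adjusted p = 8.69e-08; Uchl1 0.62, adjusted p = 9.22e-06). Insm1, a neuroendocrine transcription factor gene, did not pass (0.00, adjusted p = 0.990). Calca (-1.08, adjusted p = 0.164) and Ncam1 (-0.34, adjusted p = 0.123) did not pass either, but their values moved with the controls. Calca fell against controls 1 and 2 (-1.78, adjusted p = 2.58e-11) and rose against controls 3 and 4 (0.33, adjusted p = 0.0373). Ncam1 fell against controls 3 and 4 (-0.61, adjusted p = 0.00128) and did not pass against controls 1 and 2 (-0.03, adjusted p = 0.741).

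The cofactors through which the repressors act were nearly level. ZEB proteins recruit the corepressors CtBP1 and CtBP2, and SNAIL proteins recruit LSD1, CoREST and histone deacetylases. Of 19 tested corepressor genes 1 rose, 1 fell and 17 did not pass, with a median log2 fold change of -0.05, where 23.1% of all tested genes were called. With only controls 1 and 2, 2 rose and 3 fell, where 2987 of 13604 tested genes rose and 3081 fell. Controls 3 and 4 alone gave 1 rise and 1 fall, where 1272 of 13552 tested genes rose and 1538 fell. Ctbp2 fell to 98.1 ± 6.77 CPM in MaxKO, against 124 ± 7.84 CPM in Ctrl libraries (SD, n = 4 each; -0.34, edgeR adjusted p = 0.00713), and Rcor3, of the CoREST family, rose (0.49, adjusted p = 0.0138), a call that ended without MaxKO library 2 (adjusted p = 0.0536).

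TGF-beta signalling induces the EMT repressors in many epithelia. Of 18 tested genes of this input 3 fell and none rose, with a median of -0.02, where 12.2% of all tested genes fell, so that the count is near the background. The list also holds the ligand gene Bmp7 and inhibitory SMAD genes, so a fall in it need not mean less of the input. Tgfbr1, which encodes the type I receptor, was at 21.7, 27.2, 26.2 and 26.6 CPM in MaxKO libraries 1 to 4, against 59.9, 57.0, 57.8 and 47.2 CPM in Ctrl libraries 1 to 4 (-1.13, SE 0.102, edgeR adjusted p = 3.30e-05). The inhibitory SMAD gene Smad6 (-1.76, SE 0.222, adjusted p = 0.000255) and the ligand gene Bmp7 (-0.73, SE 0.151, adjusted p = 0.00459) also fell. With only controls 1 and 2, 8 genes of this list fell (median -0.18), and with only controls 3 and 4, 3 fell (median 0.12). Of all tested genes, 3081 of 13604 fell with controls 1 and 2, and 1538 of 13552 with controls 3 and 4. Of 13 tested genes that govern the stability of SNAIL and ZEB proteins, 1 rose and 2 fell, a share no larger than the 23.1% of all tested genes that were called. Controls 1 and 2 alone gave 2 rises and 4 falls in this list, and controls 3 and 4 alone 2 rises and 3 falls. Over all tested genes, controls 1 and 2 gave 2987 rises and 3081 falls of 13604. Controls 3 and 4 gave 1272 rises and 1538 falls of 13552. The ubiquitin ligase gene Btrc rose (0.42, adjusted p = 0.00717), Fbxw7 fell (-0.51, adjusted p = 0.00487), and Siah1a fell by 0.26 on the log2 scale (adjusted p = 0.0349) and was called in 2 of 8 fits that left out 1 library. Its adjusted p was 0.00108 against controls 1 and 2 and 0.220 against controls 3 and 4. Protein levels were not measured.

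The promoters were searched on both strands for 3 motifs in RefSeq windows of build GRCm38.p6 that run from 250 bases before to 50 bases after each start: CACCTG, the E-box form bound by ZEB and SNAIL proteins, CACGTG, the E-box form bound by MYC and MAX, and AACCGGTT, a core of the grainyhead site. Windows were at hand for 6 of the 10 members, Zeb2, Snai1, Twist1, Grhl1, Elf3 and Ovol2, and not for Zeb1, Snai2, Grhl2 and Ovol1. CACCTG occurred once each in Elf3 and Snai1 and in none of the windows of the other 4, and CACGTG and AACCGGTT occurred in none of the 6. Among 9472 tested genes with a window, 21.7% held CACCTG, 11.7% held CACGTG and 0.274% held AACCGGTT. Of the 23 genes of the epithelial list with a window, 18 held CACCTG (78.3%), 5 held CACGTG (21.7%) and 0 held AACCGGTT, at a median GC content of 61.3% against 61.0% over the tested genes. Of tested genes called higher, 31.6% held CACCTG. Among the epithelial list, 14 of 17 genes called higher and 3 of 5 not called held it, as did Cldn4, which was under the count filter. Known targets of the ZEB and SNAIL repressors were put in this list, which was drawn up with results of these libraries known. Its share of CACCTG is therefore no independent evidence that these factors act on its genes.

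The 250 bases before the start are shown for Elf3 and Snai1, the members with the motif, and for Ap1m2 and Crb3, genes that rose and held CACCTG 4 times in a window, as did 0.0739% of tested genes (7 of 9472). They are written 5′ to 3′ along the gene, with CACCTG or its reverse complement CAGGTG in capitals.
Elf3, minus strand, chr1:135258473-135258722: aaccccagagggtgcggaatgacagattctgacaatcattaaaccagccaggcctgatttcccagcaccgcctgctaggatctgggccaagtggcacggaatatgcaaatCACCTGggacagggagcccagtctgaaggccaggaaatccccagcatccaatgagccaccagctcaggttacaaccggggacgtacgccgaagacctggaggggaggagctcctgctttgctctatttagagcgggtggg
Snai1, plus strand, chr2:167537945-167538194: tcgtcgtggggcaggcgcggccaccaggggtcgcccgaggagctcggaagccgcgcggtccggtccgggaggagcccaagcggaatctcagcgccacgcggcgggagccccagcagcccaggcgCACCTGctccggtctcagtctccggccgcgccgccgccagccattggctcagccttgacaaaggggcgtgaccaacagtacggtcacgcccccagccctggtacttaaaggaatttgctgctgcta
Ap1m2, minus strand, chr9:21312334-21312583: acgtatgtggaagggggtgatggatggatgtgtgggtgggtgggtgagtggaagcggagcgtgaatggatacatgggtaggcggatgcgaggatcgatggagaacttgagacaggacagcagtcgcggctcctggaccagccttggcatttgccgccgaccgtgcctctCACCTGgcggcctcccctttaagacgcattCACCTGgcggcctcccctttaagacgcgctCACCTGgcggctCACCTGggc
Crb3, plus strand, chr17:57061951-57062200: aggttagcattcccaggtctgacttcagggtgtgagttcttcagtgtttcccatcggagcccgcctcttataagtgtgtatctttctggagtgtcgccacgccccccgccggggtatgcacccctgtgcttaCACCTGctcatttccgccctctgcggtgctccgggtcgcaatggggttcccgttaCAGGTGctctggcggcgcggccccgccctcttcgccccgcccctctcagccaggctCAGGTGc
In Elf3, whose level was higher in MaxKO, the motif began at position -140 relative to the start, and in Snai1, whose groups overlapped, at position -126. In Ap1m2 the 4 copies lie in the last stretch before the start, and of the 4 copies in Crb3 3 fall in the printed stretch. A motif match describes the letters of the window and not the binding of a factor, which was not measured here.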

How the data were processed

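RNA of 8 libraries was extracted with TRIZOL and made into libraries with an NEB Ultra kit, per the labels' protocols. The authors deposited raw read counts for each gene symbol, made with bcl2fastq 1.8.4, TopHat2 2.0.12, HTSeq 0.6.1 and mm9, per the submitters' processing notes; no annotation or strand setting is given in the sources used here, so overlapping antisense genes cannot be told apart. Reads outside exons (18.7% to 23.6%) stayed out of library sizes.

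The deposited counts were filtered with filterByExpr (13358 of 23284 genes kept), scaled by TMM and fitted with edgeR 4.0.16 in R 4.3.3 (quasi-likelihood F test, robust, group as the only term, Benjamini-Hochberg adjustment over all tested genes). SE is the log2 fold change over the root of F. The procedure was tested on simulated counts. Log2 CPM used a prior count of 2; genes under the filter use plain library totals. DESeq2 1.42.0 and limma-voom (limma 3.58.1) were alternatives.

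Members and gene lists were chosen with earlier results of these data known. Named genes are the members, their relatives with reads, up to 6 genes of smallest p per list, Cdh1, Epcam, Esrp1, Vim, Cdh2, Fn1 and Max, and for likeness the 5 nearest genes to the most highly counted member of each group. Chga, Insm1, Calca, Ncam1, Cldn3, Rhov and the cell type markers with few or no reads were named after their values were seen. Gene positions in mm9 were not used; sequences are from RefSeq (GRCm38.p6) and GENCODE M21. Values of a few genes that this rule names are not reported here.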

Additional observations from a re-analysis of the deposited data

Results flagged for a closer look

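In 19 genes of the members and their families, each group of 4 libraries was checked for a single library far from the other 3 (a gap of over 0.829 of the range). Chance marks about 1 in 20 groups, and 3 of 38 stood out. Grhl2 was at 44.7 CPM in MaxKO library 3, against 50.5 to 51.6 CPM in the other knockout libraries, and it remained above every control. Elf2, an ETS relative of Elf3 that did not differ between the groups, was at 102 CPM in MaxKO library 1, against 107 CPM in the other 3. Ehf was at 52.6 CPM in MaxKO library 2, against 50 to 50.2 CPM in the other 3, a gap that is small beside the difference from the controls.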

How the results depend on the processing

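The members were chosen on this contrast, so their calls under refits of the same libraries are no independent support. Zeb1, Zeb2, Snai2, Grhl2, Elf3 and Ovol1 kept their sign and their call in all 18 alternatives (other scalings, filters and tools, a replicate block, each library left out, and either pair of controls), with log2 fold changes of -1.23 to -1.05 for Zeb1, -0.82 to -0.55 for Zeb2, -1.25 to -0.94 for Snai2, 0.77 to 1.06 for Grhl2, 0.83 to 0.90 for Elf3 and 0.80 to 1.09 for Ovol1. Snai1 changed sign in 3 alternatives (-0.08 to 0.36), and Snai1, Grhl1 and Ovol2 were called in none. Only controls 1 and 2 gave 6068 called genes in all, against 3084 with all 4 controls, and only controls 3 and 4 gave 1 mesenchymal fall; the cause was not tested. Upper-quartile scaling gave 1160 rises and 1965 falls over all genes (62.9% falls), against 1457 and 1627 (52.8% falls). The replicate block gave 2532 called genes, 30 epithelial rises and 3 mesenchymal falls. Deviations of same-numbered libraries correlated at -0.20 to 0.00 (0.00198 at most), and none of the 4 knockout libraries correlated best with its own number. The values thus showed no pairing by number, but with 4 libraries per group they cannot exclude a weak one. Depth limits Snai1, Twist1, Grhl3 and most mesenchymal genes.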

Other observations

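Within the knockout group, libraries 1 and 2, which had the lower Max mRNA (42.3 CPM each, against 59.1 and 68.0 CPM in libraries 3 and 4), also had the lower values of 3 of the 4 tested repressor genes. Zeb1 was at 19.2 and 22.7 CPM in libraries 1 and 2 and at 27.9 and 28.1 CPM in libraries 3 and 4. Zeb2 was at 2.77 and 3.12 CPM in libraries 1 and 2 and at 3.25 and 3.89 CPM in libraries 3 and 4, and Snai2 at 1.98 and 2.46 CPM in libraries 1 and 2 and at 3.12 and 3.25 CPM in libraries 3 and 4. The order of Zeb2 was close, with 47 reads in library 2 and 48 reads in library 3. Snai1, the other tested repressor gene, overlapped (1.04 and 1.26 CPM in libraries 1 and 2, against 1.15 and 1.40 CPM in libraries 3 and 4). The epithelial regulators had no common order. Ovol2 was also lower in libraries 1 and 2 (8.40 and 8.10 CPM, against 8.47 and 9.31 CPM in libraries 3 and 4), Grhl1 (37.4 and 38.0 CPM, against 37.3 and 37.0 CPM) and Grhl2 (51.0 and 51.6 CPM, against 44.7 and 50.5 CPM) were higher there, and the values of Elf3 and Ovol1 overlapped between these libraries. With 4 libraries no relation across samples was computed, and the pattern was noticed after the values were seen. The share of all genes with the same order was not computed, so nothing about the repressors is read from the count of 3 of 4. A relation to the level of Max was not tested.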
